A study of Rattus norvegicus with 84 samples.

Results

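Genes that encode histone and DNA modification enzymes were described in the nucleus accumbens of rats from a study of cocaine withdrawal and extinction. The set was chosen by name: a list of 43 histone deacetylases, acetyltransferases, methyltransferases, demethylases and DNA methylation genes, of which 42 were found among the 41919 genes of the count table. Hdac6, the remaining member of the list, was not analysed here. Total RNA had been sequenced from the core and the shell of the nucleus accumbens in 84 libraries. All came from wild-type Long-Evans rats, so no allele or transgene separates the groups. By the labels there were 12 groups of 7 libraries, one for each pairing of subregion (Core or Shell), condition (Ext, HC or Ctx) and drug, where Coc stands for cocaine and Sal for saline. The study names withdrawal and extinction as the conditions it compares, and the labels do not spell out HC or Ctx. The labels give no dose, route, timing, age or sex. The titles number the libraries in series 1, 2 and F for Core and 3, 4 and F for Shell, and only the F series holds both subregions. Whether separate animals gave the libraries is not said in the labels, and every p-value below therefore measures only the spread between these samples, which may be technical.

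Histone acetyltransferases add acetyl groups to histone tails and loosen chromatin, and deacetylases remove them. Histone methyltransferases write marks that accompany active genes (the KMT2 family) or silent ones (EHMT, EZH, SETDB and SUV39H enzymes), and KDM enzymes erase them. DNA methyltransferases methylate cytosine, TET dioxygenases oxidise the methyl group, and MBD proteins bind methylated CG sites. In the accumbens, HDAC5, HDAC4, SIRT1, G9a (encoded by Ehmt2), PRMT6, DNMT3A and TET1 have been studied for their part in responses to cocaine. RNA levels say nothing of the activity of these enzymes or of the marks they place.

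Libraries held 13.6 M to 22.5 M counts, where M stands for 10 to the sixth power. The 42 members together took 0.257% to 0.327% of them, with a median of 0.286%. Summed levels of gene lists are given in CPM relative to the total counts of the library, without TMM scaling. For single genes CPM is relative to the TMM-adjusted size of the library. Markers of striatal projection neurons (Ppp1r1b, Bcl11b, Foxp1 and Rgs9) were detected in every library, at a summed level of 748 to 1926 CPM. The value of 748 CPM was that of library 17-F, described below, and without it the lowest was 936 CPM. Markers of cortical glutamatergic neurons, which belong to neighbouring tissue, ranged from 3.97 to 292 CPM summed over 4 genes, and choroid plexus markers from 1.76 to 27.0 CPM summed over 3 genes. The libraries also carried a varying level of reads over genes that brain tissue is not thought to use. This was measured with 1386 olfactory and vomeronasal receptor genes, whose summed level ran from 60.7 to 1904 CPM in 83 libraries. In library 17-F of Core_Ctx_Coc it was 3461 CPM. Spread over all gene bodies at the rate per base of the receptor genes, such reads would make up 1.72% to 54.0% of the counts of those 83 libraries and 98.1% of 17-F. The highest of the 83 was library 12-F of Shell_Ext_Sal. Library 6-F of Shell_HC_Coc had the lowest receptor level in Shell, 82.4 CPM, though Core libraries went down to 60.7 CPM. Results that rest on 17-F, 12-F or 6-F are given with and without them.

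Between genes, levels were compared on the deposited FPKM scale, fragments per length of gene and depth of library. Counts and FPKM together imply 1 length per gene, and for Hdac4 that length was 246698 bases, which includes introns. For 39 of the 42 members the length was at least 90% of the gene span in RefSeq (GRCr8), so for them the scale is close to a level per base of gene body, and it lowers genes with long introns. It was shorter for Ezh2 (84.7%), Kmt2c (53.2%) and Suv39h1 (14.5%), whose levels are not on the same footing as the rest. The highest median levels over the 84 libraries belonged to Hdac11, the only class IV deacetylase (5.04 FPKM, range 1.16 to 6.96), and Kmt2d, a methyltransferase of active enhancers (4.98 FPKM, 0.9748 to 7.02). Their ranges overlapped almost fully, so the order of this pair was not resolved. Ehmt2, which encodes the repressive methyltransferase G9a (4.08 FPKM), Kat2a, the acetyltransferase GCN5 (3.99 FPKM), Kmt2a (2.84 FPKM) and Hdac5 (2.55 FPKM) came next. The median over the 42 members was 0.970 FPKM, and 83.1% of all genes with a length lay at or below that value. Of the members, 20 had a median above 1 FPKM and 9 a median under 0.5 FPKM.

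**Figure D1:**
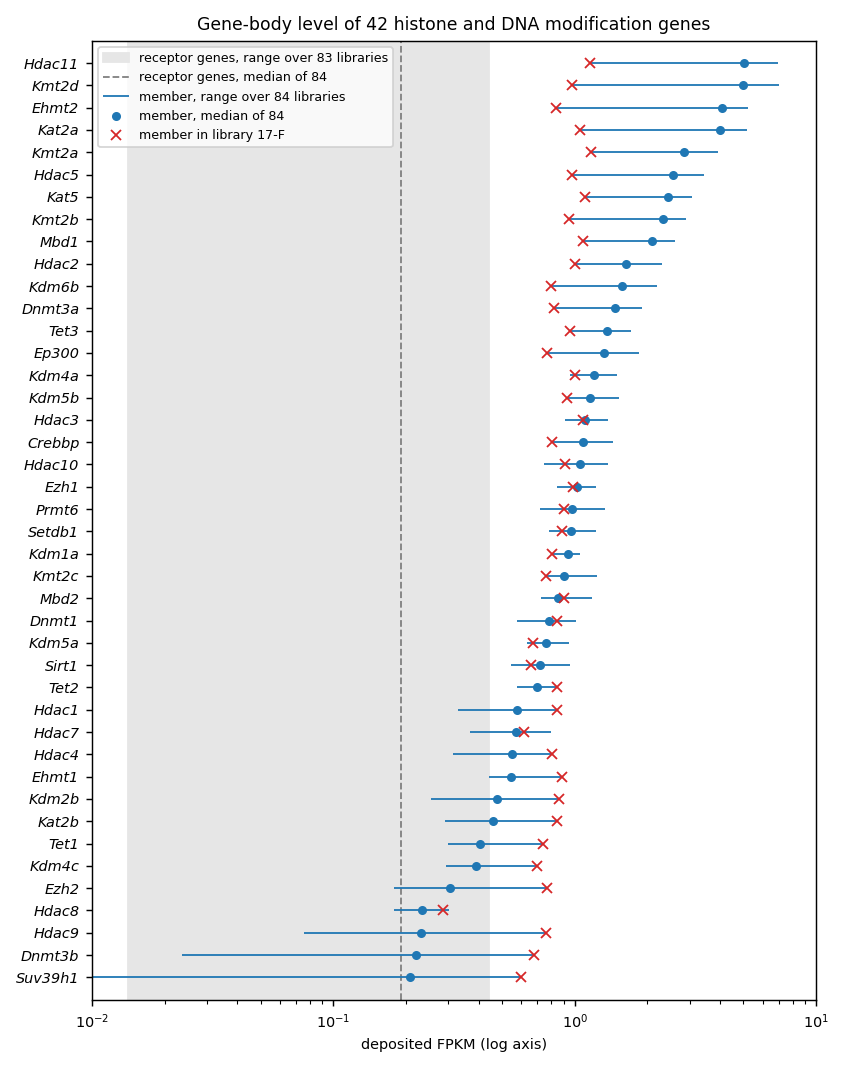
Deposited FPKM of the 42 members on a log axis. Dots are medians over 84 libraries, lines the range, and red crosses the value in library 17-F; the grey band is the range of the receptor genes per base over the other 83 libraries and the dashed line their median over 84. The line of Suv39h1 leaves the axis on the left because its lowest value is 0. From Hdac11 (median 5.04) to Suv39h1 (0.208) the members approach the receptor median of 0.190, and in 17-F they gather near 1.

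By role, the acetyltransferases ran from Kat2b (PCAF, 0.458 FPKM) through Ep300 (p300, 1.33 FPKM) to Kat2a. Among class I deacetylases, the nuclear enzymes of corepressor complexes, Hdac2 had 1.63 FPKM, Hdac3 1.11, Hdac1 0.578 and Hdac8 0.233. The class IIa deacetylases, which shuttle between nucleus and cytoplasm, were spread more widely: Hdac5 stood at 2.55 FPKM, Hdac7 at 0.569, Hdac4 at 0.550 and Hdac9 at 0.230. The 4 methyltransferases of the KMT2 family lay between 0.907 (Kmt2c) and 4.98 FPKM (Kmt2d), and the 6 repressive methyltransferases between 0.208 (Suv39h1) and 4.08 FPKM (Ehmt2). For DNA methylation, the de novo enzyme Dnmt3a had 1.47 FPKM, the maintenance enzyme Dnmt1 0.780 and the de novo enzyme Dnmt3b 0.220. Tet3 (1.36 FPKM) was above Tet2 (0.697) and Tet1 (0.407). The 7 demethylases lay between 0.388 (Kdm4c) and 1.57 FPKM (Kdm6b, which erases a Polycomb mark). Sirt1 had 0.719 FPKM, Prmt6 0.976, Mbd1 2.10 and Mbd2 0.855.

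The lowest members were close to the level of the receptor genes, which had a median of 0.190 FPKM. The median ratio of a member to the receptor genes in the same library was above 10 for 9 members and above 5 for 22. It was under 2 for 5 members: Ezh2 (1.65), Hdac9 (1.23), Hdac8 (1.23), Suv39h1 (1.22) and Dnmt3b (1.22). Suv39h1 rests on few reads, with a median of 6 counts and a range of 0 to 17, and its implied length of 1864 bases is 14.5% of its gene span, so its place in the order is uncertain. In the 10 libraries of lowest receptor level (9 Core and 1 Shell, 7 of them of the F series), 38 members had a median ratio above 10 and Dnmt3b (1.62) and Suv39h1 (1.62) remained under 2. Hdac9 was at 0.0909 FPKM there, 5.02 times the receptor genes. In library 17-F the 42 members lay between 0.355 (Hdac8, on the X chromosome) and 1.45 times the receptor genes (Kmt2a), with a median of 1.05. Members that are high elsewhere were low in 17-F and members that are low elsewhere were high: 18 members had their lowest FPKM of all libraries there and 12 their highest.

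Across the 84 libraries the members moved with the receptor level. In edgeR's quasi-likelihood test with Benjamini-Hochberg adjustment, a slope on the receptor level fitted beside the groups was negative and past the threshold for 37 members (40.4% of all 32145 genes tested fell) and positive for 3 (54.5% of all genes rose). This test was added after the values had been seen. The median slope of the members was -0.30 on the log2 scale per doubling of the receptor level, and that of all genes tested 0.17. Kmt2d (-0.46 ± 0.03 SE), Hdac11 (-0.46 ± 0.02) and Ehmt2 (-0.46 ± 0.03) had the steepest falls. Dnmt3b (0.55 ± 0.03), Suv39h1 (0.51 ± 0.07) and Hdac9 (0.21 ± 0.01) rose. Ezh2, a catalytic Polycomb subunit (-0.0028 ± 0.0153), and Kdm2b (0.0052 ± 0.0120) did not pass. Within Shell alone 37 members fell and 2 rose, where 37.0% of all genes fell and 49.4% rose, and without 17-F the counts over all libraries were again 37 and 3.

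**Figure D2:**
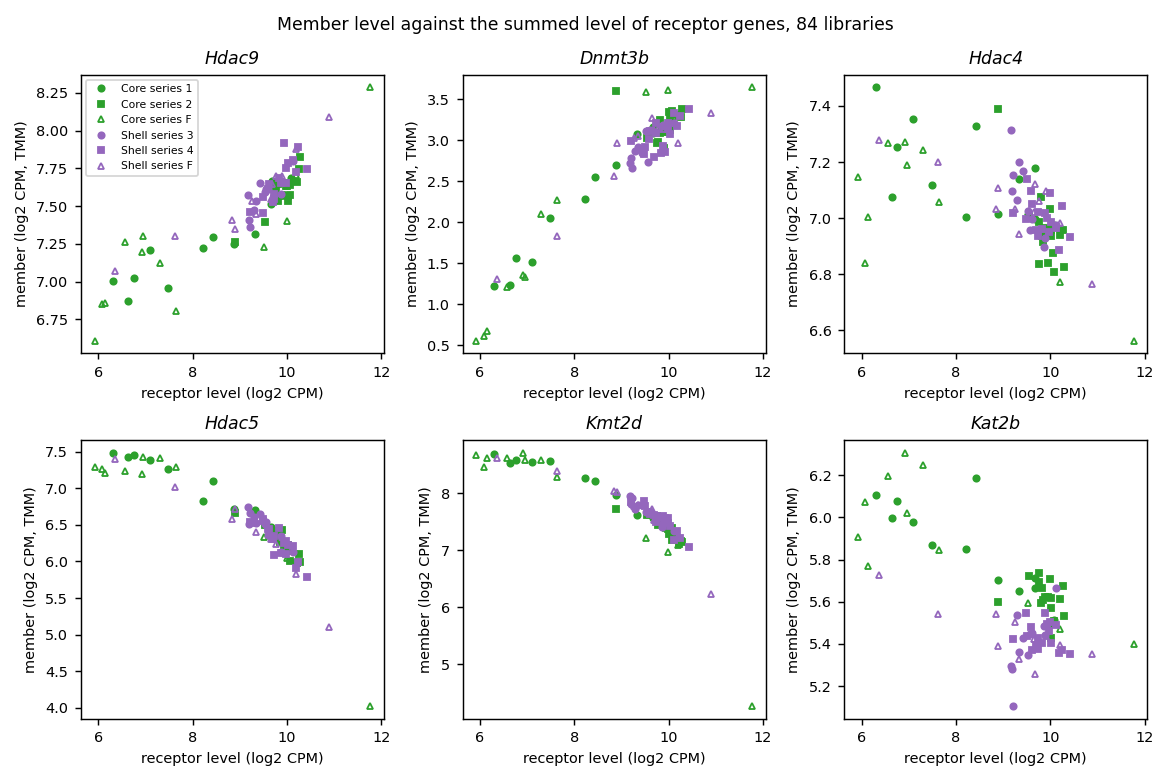
Level of 6 members (log2 CPM, TMM scaled) against the summed level of the receptor genes (log2 CPM), 1 point per library, with subregion by colour and series by marker. Hdac9 and Dnmt3b rise to the right, Hdac5 and Kmt2d fall to the right down to library 17-F at the far right, Hdac4 falls little, and Kat2b shows Shell points below Core points at the same receptor level.

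Differences between the 12 groups were small beside the spread within a group. The median level of a member in its highest group was 1.10 to 1.55 times that in its lowest group, with a median of 1.28. For 28 of 42 members this range was under 1 SD of log2 levels within groups, and for all 42 it was under 2 SD. Kdm6b spanned 26.1 CPM (median in Core_Ctx_Coc) to 38.4 CPM (Shell_HC_Coc), a ratio of 1.47, and Kdm2b 56.8 CPM (Shell_HC_Coc) to 62.4 CPM (Core_Ext_Coc), a ratio of 1.10. Suv39h1 had the ratio of 1.55, at medians of 0.292 and 0.452 CPM. In bulk tissue, fewer cells of a type and less RNA per cell cannot be told apart.

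The comparison of Shell with Core asks which members differ by subregion over all drugs and conditions. Each numbered series holds 1 subregion, so among those libraries subregion and series cannot be told apart. The p-values over 84 libraries rest in part on them. Of the 42 members, 5 were lower in Shell and 1 was higher at an adjusted p under 0.05 (edgeR's quasi-likelihood test, 84 libraries). Over all 32145 genes tested, 8.77% were lower and 4.56% higher. The members called made up 14.3% of the members and the genes called 13.3% of all genes, so the count itself does not set the members apart. At an unadjusted p under 0.05 there were 13 members, against 29.2% of all genes. The 5 lower members were Kat2b, Kdm4a, Ezh1, Tet3 and Hdac5, and the higher one was Hdac9. The difference of Kat2b, 1.26-fold, was the widest of the 6. In all, 37 members had negative estimates, and the median was -0.12 on the log2 scale where that of all genes was 0.05.

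The 250 bases upstream of the start of 3 members are shown because these members mark the ends of what follows. Kat2b was lower in Shell under nearly all settings, Hdac9 was the member called higher, and Ehmt2 was among the members that fell most steeply with the receptor level. The sequences are from RefSeq (build GRCr8, read on the strand of the gene), while the counts were made on mRatBN7.2, and capitals mark the CG sites that DNA methyltransferases act on. The windows are chr9:6798895-6799144 (plus strand) for Kat2b, chr6:57052572-57052821 (minus strand) for Hdac9 and chr20:3940711-3940960 (minus strand) for Ehmt2.
Kat2b: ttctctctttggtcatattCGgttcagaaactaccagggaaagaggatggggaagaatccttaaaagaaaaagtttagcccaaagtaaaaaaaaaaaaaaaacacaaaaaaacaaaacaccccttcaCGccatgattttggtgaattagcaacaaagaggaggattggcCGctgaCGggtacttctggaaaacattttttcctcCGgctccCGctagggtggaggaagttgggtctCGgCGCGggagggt
Hdac9: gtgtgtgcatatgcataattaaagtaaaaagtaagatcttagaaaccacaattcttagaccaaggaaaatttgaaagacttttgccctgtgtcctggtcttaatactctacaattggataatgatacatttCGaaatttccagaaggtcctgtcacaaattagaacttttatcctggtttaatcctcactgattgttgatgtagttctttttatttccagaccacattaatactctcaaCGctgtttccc
Ehmt2: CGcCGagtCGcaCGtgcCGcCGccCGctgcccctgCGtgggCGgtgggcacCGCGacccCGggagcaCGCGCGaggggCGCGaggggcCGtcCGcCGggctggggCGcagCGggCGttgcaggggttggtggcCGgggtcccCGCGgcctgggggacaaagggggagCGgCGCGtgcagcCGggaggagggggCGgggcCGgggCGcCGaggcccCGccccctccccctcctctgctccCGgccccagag
The Ehmt2 window holds 36 CG sites at 83.2% G and C, that of Kat2b 9 at 44.4% and that of Hdac9 2 at 34.4%.

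Such windows were listed for 36 of the 42 members (not for Hdac11, Kat2a, Kmt2a, Kmt2d, Ezh1 and Dnmt3b), and the first listed start was taken. The members' windows held 1 (Tet1) to 45 (Kmt2c) CG sites with a median of 18, where the median over 27457 promoters was 6. At least 10 CG sites stood in 30 of 36 windows, against 38.4% of all promoters of the same length. The GC box GGGCGG, searched on both strands, stood in 20 of 36, against 32.4% of all promoters. Each such box contains a CG site, so this count is tied to that of the CG sites. These are counts of letters, and they were not tested against the levels.

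Kat2b, the acetyltransferase PCAF, had 34.3, 42.9 and 52.9 CPM in Shell (lowest, median and highest of 42 libraries) and 42.1, 51.3 and 79.1 CPM in Core. All 42 Shell libraries lay below the Core mean of 54.6 CPM, and 16 lay below every Core library. The difference was -0.34 ± 0.04 on the log2 scale (SE), 1.26-fold lower in Shell, with adjusted p = 9.31e-10 (edgeR). It was -0.44 ± 0.13 within the F series (adjusted p = 0.298), the series that holds both subregions, and -0.31 ± 0.04 without it (adjusted p = 1.04e-07, edgeR for both). Without the F series subregion and series cannot be told apart, and most libraries of the full fit are of that kind. Within the F series Kat2b stood at 43.5 ± 3.89 CPM in Shell and 59.3 ± 12.9 CPM in Core (SD, n = 12 each). Without 17-F the F series gave -0.48 ± 0.13 (adjusted p = 0.0543, edgeR). With the receptor level as a covariate Kat2b had -0.24 ± 0.03 (adjusted p = 4.87e-11, edgeR). It passed as lower in every setting run except the fits of the F series alone.

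Kdm4a, a demethylase of repressive lysine marks, had 34.0, 51.2 and 80.0 CPM in Shell and 22.2, 55.0 and 101 CPM in Core, the lowest Core value being 17-F. The ranges overlapped, and 40 of 42 Shell libraries lay below the Core mean. Its difference was -0.30 ± 0.08 (adjusted p = 0.00317, edgeR). With the receptor level as a covariate it was -0.05 ± 0.03 (adjusted p = 0.233, edgeR), and -0.07 ± 0.03 with 17-F left out as well (adjusted p = 0.0335, edgeR).

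Ezh1, a Polycomb methyltransferase of non-dividing cells, had 25.03, 33.8 and 55.6 CPM in Shell and 16.8, 35.9 and 64.0 CPM in Core, a difference of -0.24 ± 0.07 (adjusted p = 0.0176, edgeR). Tet3 had 71.5, 123 and 206 CPM in Shell and 44.2, 127 and 239 CPM in Core, a difference of -0.25 ± 0.08 (adjusted p = 0.0344, edgeR). Hdac5 had 34.2, 81.5 and 169 CPM in Shell and 16.2, 85.4 and 179 CPM in Core, a difference of -0.30 ± 0.11 (adjusted p = 0.0470, edgeR). For these 3 genes the ranges overlapped and the medians of the subregions were close. The lowest Core value of each was that of library 17-F. The higher Core means came from libraries of series 1 and F. With the receptor level as a covariate none of the 3 passed in edgeR, with Ezh1 at -0.0046 ± 0.0269 (adjusted p = 0.914), Tet3 at 0.04 ± 0.03 (adjusted p = 0.392) and Hdac5 at 0.06 ± 0.05 (adjusted p = 0.302).

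Hdac9, a class IIa deacetylase, had 135, 196 and 272 CPM in Shell and 97.5, 176 and 312 CPM in Core, the highest Core value being 17-F. In 36 of 42 Shell libraries it lay above the Core mean, and the ranges overlapped. The difference was 0.20 ± 0.06 (adjusted p = 0.0127, edgeR), 0.23 ± 0.05 without 17-F (adjusted p = 6.86e-04) and 0.07 ± 0.03 with the receptor level as a covariate (adjusted p = 0.0560). DESeq2 gave 0.19 (adjusted p = 0.0724).

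**Figure D3:**
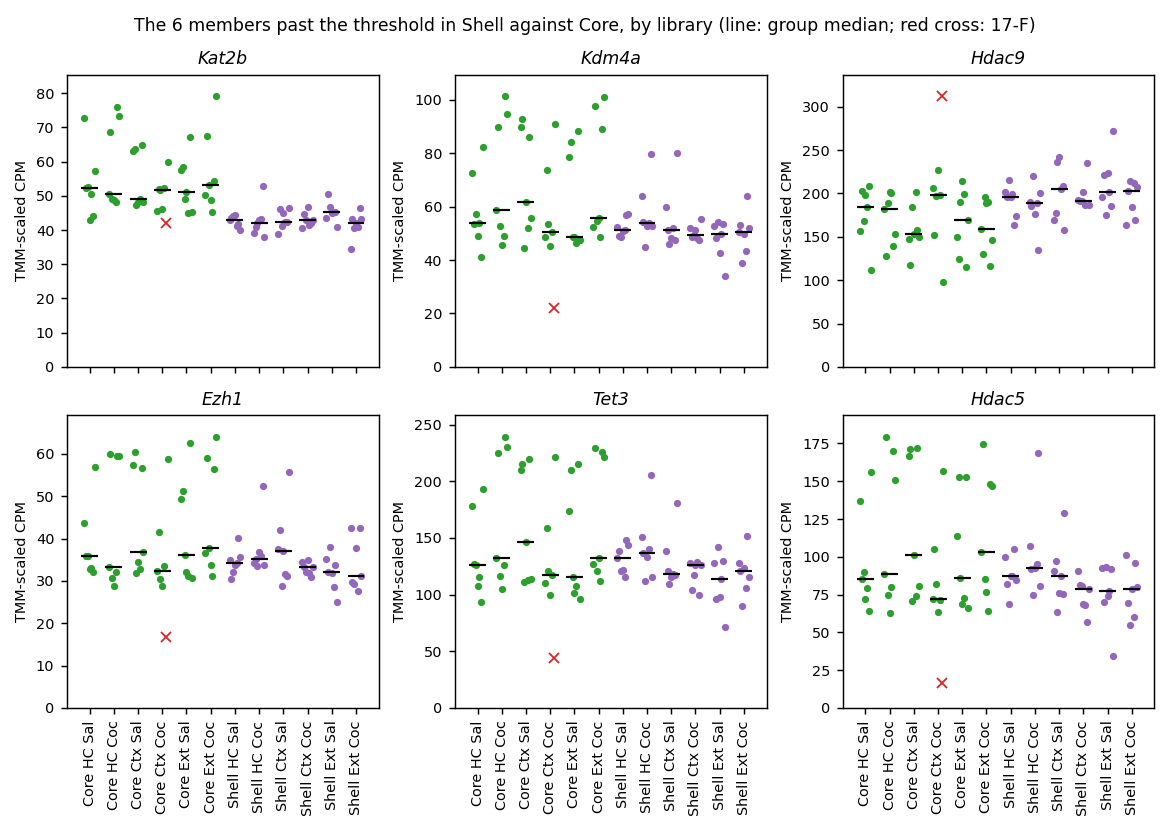
TMM-scaled CPM of the 6 members past the threshold in Shell against Core, by group and library (7 libraries a group, linear axes from 0). Green points are Core, purple points Shell, black lines group medians and the red cross library 17-F. Kat2b medians lie between 41.95 and 45.2 CPM in the 6 Shell groups and between 49.1 and 53.1 CPM in the 6 Core groups; for Kdm4a, Ezh1, Tet3 and Hdac5 each Core group splits into a higher and a lower set of libraries.

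Measures other than the subregion moved with this comparison. The summed level of 8 oligodendrocyte markers had a median of 1134 CPM in Shell (732 to 1522) and 3328 CPM in Core (1733 to 5913 without 17-F, which had 412). All 8 were lower in Shell, with a median log2 difference of -1.75. The receptor level had nearly the same median in both subregions, 812 CPM in Shell and 816 CPM in Core, but Core libraries spread further down: its median was 322 CPM in Core series 1, 998 in Core series 2 and 141 in Core series F, against 713, 925 and 727 in Shell series 3, 4 and F. Other cell type markers differed as well: 4 of 4 markers of oligodendrocyte precursors, 5 of 6 of microglia, 2 of 6 of astrocytes (Gfap -1.61, Aqp4 -0.74), 2 of 4 of D2-type projection neurons (Penk -0.94), 2 of 4 of striatal projection neurons (Ppp1r1b -0.57) and 1 of 4 of endothelium were lower in Shell. Of the D1-type markers 2 of 4 were higher, and of the interneuron markers 3 of 6 were higher (Slc5a7 0.60, Calb2 0.54) and 2 lower. No marker of cortical glutamatergic neurons or choroid plexus passed. The part of these cell types in the differences of the members was not tested.

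The receptor level was put into the fit as a covariate, and the sign of most members then turned. With it, 27 members were higher in Shell and 1 (Kat2b) lower, at a background of 29.6% of genes higher and 11.5% lower. The median of the members moved from -0.12 to 0.13 on the log2 scale, while that of all genes went from 0.05 to 0.04. Kdm6b then had the highest estimate (0.31 ± 0.04, adjusted p = 3.38e-10, edgeR), after 0.01 without the covariate, followed by Kmt2a (0.27 ± 0.04), Kat5 (0.25 ± 0.04) and Hdac11 (0.25 ± 0.05). Without 17-F and with the covariate the counts were 28 higher and 2 lower (Kat2b and Kdm4a), at a background of 28.6% and 15.2% of genes. Without 17-F and with no covariate, 1 member was higher and 10 lower, at a background of 12.6% and 13.7% of genes. The 10 were the 5 above with Ehmt2, Hdac10, Hdac7, Hdac8 and Mbd2. Left out together with 12-F the counts were 1 and 8 (9.18% and 11.3% of genes), and without 6-F they were 1 and 5 (6.57% and 9.33%). Without the F series 0 members were higher and 3 lower (2.75% and 7.08%): Ezh1, Tet3, Hdac5 and Hdac9 did not pass there, and Hdac7 did beside Kat2b and Kdm4a. In the F series alone no member passed in edgeR, with or without 17-F (background 0.876% higher and 1.22% lower without it), where the series spans 12 libraries of each subregion. The direction of the members as a group in Shell against Core thus depended on the setting, and that of Kat2b did not.

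**Figure D4:**
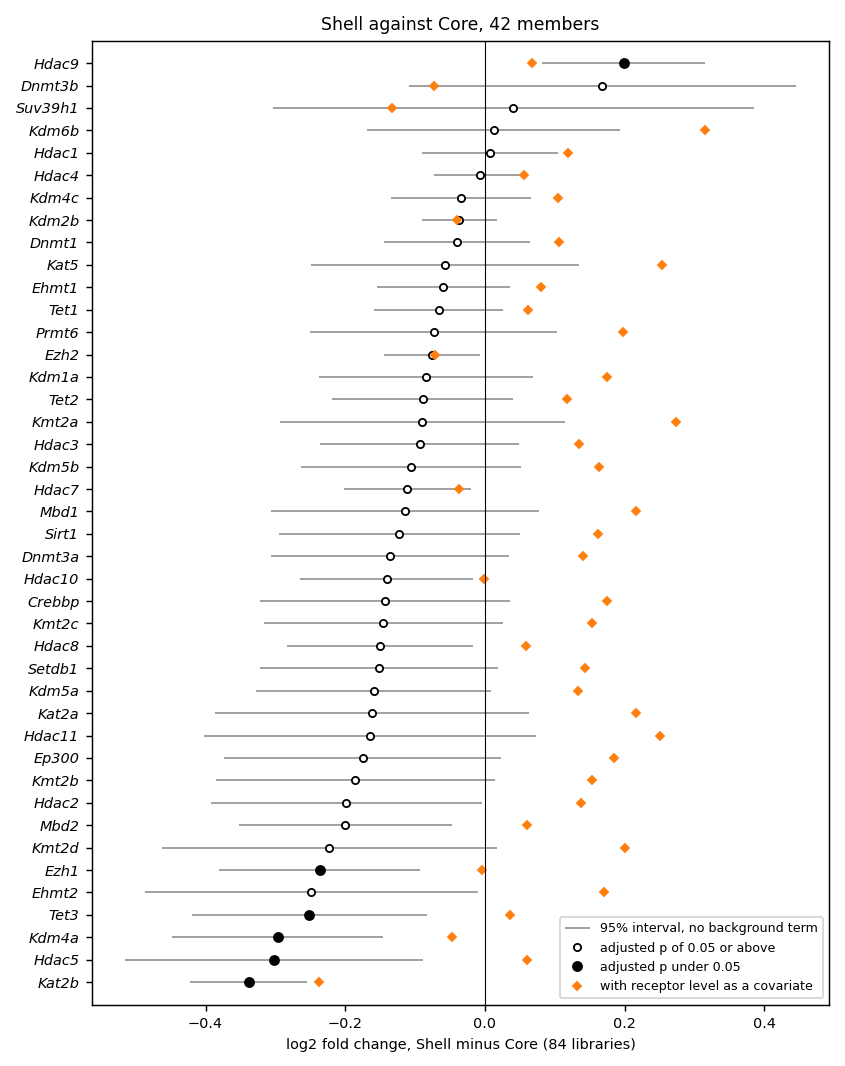
Log2 difference Shell minus Core of the 42 members over 84 libraries. Circles are estimates with 95% intervals (filled where adjusted p is under 0.05, edgeR), and orange diamonds the estimates with the receptor level as a covariate. 37 circles lie left of 0 and 33 diamonds lie right of 0, with Kat2b left of 0 in both.

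The series of the titles was set beside these effects. In Core, 40 of 42 members differed between series 1, 2 and F at an adjusted p under 0.05 (edgeR), as did 77.6% of all genes (at an unadjusted p, 40 members and 81.0% of genes). In Shell, 2 members did, Hdac8 (adjusted p = 0.0378) and Tet1 (adjusted p = 0.0455), against 0.734% of all genes (at an unadjusted p, 16 members and 19.3% of genes). That count was 0 without 6-F (0.17% of all genes) and 13 without 12-F (12.3%). Kmt2d had a median of 303 CPM in Core series 1, 167 in series 2 and 368 in series F, and 208, 190 and 214 CPM in Shell series 3, 4 and F. Dnmt3b went the other way in Core, with 5.26, 8.85 and 3.32 CPM in series 1, 2 and F. Hdac4 differed less, with 140, 124 and 132 CPM. With the receptor level as a covariate 2 members passed in Core in place of 40, and 5.8% of all genes in place of 77.6%.

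Cocaine and saline groups were compared to ask whether a history of cocaine changed these transcripts. In edgeR's quasi-likelihood test 0 of 42 members passed in any of the 8 comparisons (Ext, HC, Ctx and their average in each subregion), where 0.0% of all genes passed. DESeq2 called 0 members as well. At an unadjusted p under 0.05 there were 3 members in Core Ctx (10.9% of all genes) and 2 in Shell Ctx (4.83% of all genes), and 0 in the other 6, where the share of all genes was 0.574% (Ext), 0.593% (HC) and 1.38% (average) in Core and 1.57%, 1.34% and 0.935% in Shell. The intervals bound what could have been missed in the counts, reads at the background level included. Averaged over conditions, all 42 intervals lay within a 2-fold change in either direction. The median reach of an interval to either side was 1.195-fold in Core and 1.096-fold in Shell. Within single conditions the median reach was 1.36-fold in Core, where 35 to 40 of the 42 intervals lay within 2-fold and the widest reached 2.66-fold, and 1.17-fold in Shell, where all 42 lay within 2-fold. A change in the transcript itself could exceed these bounds where a member is near the receptor level. That applies most to the 5 members with a median ratio to the receptor genes under 2.

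The members studied for cocaine responses were close to 0 in the average over conditions (21 against 21 libraries). That average joins conditions in which the 42 members leaned opposite ways, though none passed. In Core the median over the 42 members was 0.14 in Ext, 0.14 in HC and -0.29 in Ctx (-0.16 without 17-F). In Shell it was 0.04, 0.10 and -0.14. Hdac5 had -0.06 ± 0.16 (SE, log2) in Core and -0.01 ± 0.10 in Shell. Ehmt2 had -0.06 ± 0.18 and 0.02 ± 0.10. Dnmt3a had 0.06 ± 0.13 and -0.01 ± 0.08, and Sirt1 0.04 ± 0.13 and 0.0048 ± 0.0711. Hdac4 had 0.02 ± 0.05 and 0.02 ± 0.03, the narrowest of this group, with 95% intervals from 0.942 to 1.09-fold in Core and 0.965 to 1.06-fold in Shell. Prmt6 had -0.07 ± 0.13 and 0.09 ± 0.08. Tet1 had -0.01 ± 0.07 in Core and -0.07 ± 0.04 in Shell, where 17 of 21 Coc libraries lay below the Sal mean (adjusted p = 0.9999, edgeR). Group by group Hdac5 showed the spread behind these values. Its lowest, median and highest levels were 16.2, 72.4 and 157 CPM in Core_Ctx_Coc and 70.7, 101 and 172 CPM in Core_Ctx_Sal. The value of 16.2 CPM was that of library 17-F, and the next lowest in that group was 63.6 CPM. In Core_HC_Coc the lowest, median and highest levels were 62.7, 88.4 and 179 CPM, against 63.9, 85.2 and 156 CPM in Core_HC_Sal.

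The members of lowest p in each drug comparison did not pass. In Core Ctx, Hdac7 had 11.2, 21.6 and 22.1 CPM in Coc and 18.5, 25.4 and 29.6 CPM in Sal, with all 7 Coc libraries below the Sal mean and a difference of -0.26 ± 0.11. Hdac9 had 0.37 ± 0.17 and Dnmt1 -0.28 ± 0.13 there, and all 3 had adjusted p = 0.433 (edgeR). Without 17-F these differences were -0.16, 0.15 and -0.16, and 0 members stood at an unadjusted p under 0.05 (1.79% of all genes). Without the whole F series, which also leaves out 17-F, 13 members did (20.7% of all genes). The member median was -0.31 there, -0.16 without 17-F alone and -0.29 over all libraries. In Shell Ctx, Ehmt1, the partner of G9a, had 69.3, 77.1 and 80.5 CPM in Coc and 75.8, 81.9 and 111 CPM in Sal, a difference of -0.17 ± 0.07 with all 7 Coc libraries below the Sal mean. Tet1 had -0.15 ± 0.07 and Kmt2c -0.23 ± 0.11, with adjusted p = 0.731 for each (edgeR). In the Ext comparisons Ehmt1 (0.18 ± 0.12), Hdac10 (0.19 ± 0.15) and Ezh2 (0.12 ± 0.10) had the lowest p in Core (adjusted p = 0.923 each), and Kat2b (-0.13 ± 0.07), Hdac3 (0.17 ± 0.10) and Tet1 (-0.10 ± 0.07) in Shell (adjusted p = 0.998 each, edgeR). In the HC comparisons they were Hdac4 (0.14 ± 0.09), Ehmt1 (0.17 ± 0.12) and Hdac8 (0.25 ± 0.18) in Core (adjusted p = 0.820 each), and Hdac4 (0.10 ± 0.06), Hdac1 (0.15 ± 0.09) and Hdac3 (0.14 ± 0.10) in Shell (adjusted p = 0.891 each, edgeR). In the averages they were Kdm2b (-0.05 ± 0.04), Ezh2 (0.06 ± 0.06) and Hdac7 (-0.06 ± 0.06) in Core, and Tet1, Ezh2 (-0.06 ± 0.04) and Hdac3 (0.07 ± 0.06) in Shell.

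The drug effect in Shell was also tested against that in Core. For Ext, HC and Ctx, edgeR passed 0 of 42 members and DESeq2 also 0, and 0.0% of all genes passed. Unadjusted p values under 0.05 came with 0 members in each, where 0.376%, 0.308% and 1.76% of all genes had one. The lowest p belonged to Hdac9 in Ctx (Shell minus Core -0.33 ± 0.20, adjusted p = 0.964) and Ezh2 in Ext (-0.19 ± 0.12, adjusted p = 1.00, edgeR).

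Conditions were compared within cocaine and within saline groups, which sets extinction against the other conditions. In the 12 comparisons 0 of 42 members passed in edgeR and 0 in DESeq2, and 0.0% of all genes passed in edgeR. These comparisons share groups and are not independent. A test of any difference among the 6 groups of a subregion likewise called 0 members in Core and 0 in Shell (edgeR and DESeq2), and 0.0% of all genes. At an unadjusted p under 0.05 there were 0 members in Core (0.893% of all genes) and 1 in Shell (3.76%), Kdm6b. Its adjusted p was 0.740, and the member of lowest p in Core, Hdac4, had an adjusted p of 0.923 (edgeR).

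Most members at a low unadjusted p belonged to Shell, Ctx_Coc against HC_Coc. There 16 of 42 members had an unadjusted p under 0.05, all lower in Ctx_Coc, against 15.9% of all genes, and none passed after adjustment. Kdm6b had 28.6, 30.5 and 37.8 CPM in Ctx_Coc and 34.6, 38.4 and 68.2 CPM in HC_Coc, a difference of -0.39 ± 0.14 (adjusted p = 0.294, edgeR). All 7 Ctx_Coc libraries lay below the HC_Coc mean and 5 below every HC_Coc library. Hdac4 had 119, 129 and 130 CPM against 127, 141 and 159 CPM, a difference of -0.16 ± 0.06. Sirt1 had 11.7, 14.6 and 16.0 CPM against 14.9, 16.0 and 30.1 CPM, a difference of -0.32 ± 0.12. Library 6-F, which held the highest HC_Coc value of Kdm6b and of Sirt1, had a receptor level of 82.4 CPM against a group median of 649 CPM, and the median of Ctx_Coc was 851 CPM. Without 6-F, 2 members in place of 16 had an unadjusted p under 0.05 (3.59% of all genes), and Kdm6b had -0.28, Hdac4 -0.14 and Sirt1 -0.18. Without the F series 4 did (7.77% of all genes), without 12-F 23 (22.2%) and with DESeq2 21 (21.9%). With the receptor level as a covariate 1 member did, and the 3 differences were -0.10, -0.11 and -0.08.

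Shell, Ext_Coc against HC_Coc, shares the HC_Coc group and had 6 members at an unadjusted p under 0.05 (8.42% of all genes). Kdm6b (-0.35 ± 0.14), Dnmt3a (-0.33 ± 0.13) and Hdac4 (-0.14 ± 0.06) had the lowest p, with adjusted p = 0.464 each (edgeR), and without 6-F 1 member stood under 0.05. That count rose to 17 without 12-F, a library of neither group that enters the shared estimate of spread, to 17 without the F series and to 14 with DESeq2, where 12.6%, 18.1% and 11.9% of all genes had such a p. In Core, Ext_Coc against Ctx_Coc had 2 such members (9.52% of all genes), Kdm5b (0.46 ± 0.21) and Hdac9 (-0.35 ± 0.17), with adjusted p = 0.304 each. Without 17-F, a Ctx_Coc library, there were 0, with Kdm5b at 0.30 and Hdac9 at -0.14. Core Ctx_Coc against HC_Coc had 1 (4.18% of all genes), Hdac4 (-0.20 ± 0.09, adjusted p = 0.449, edgeR). That count was 0 without 17-F, and 0 with DESeq2, where 2668 of 31370 genes had such a p. Shell Ext_Sal against Ctx_Sal had 1 (8.32% of all genes), Ehmt1 (-0.16 ± 0.07, adjusted p = 0.509, edgeR). The other 7 condition comparisons had 0 members, where the share of all genes in Core was 0.347% (Ext_Coc against HC_Coc), 0.23% (Ext_Sal against HC_Sal), 0.912% (Ext_Sal against Ctx_Sal) and 1.21% (Ctx_Sal against HC_Sal). In Shell it was 0.705% (Ext_Coc against Ctx_Coc), 5.78% (Ext_Sal against HC_Sal) and 1.55% (Ctx_Sal against HC_Sal). Intervals were about as wide as those of the drug comparisons within single conditions.

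**Figure D5:**
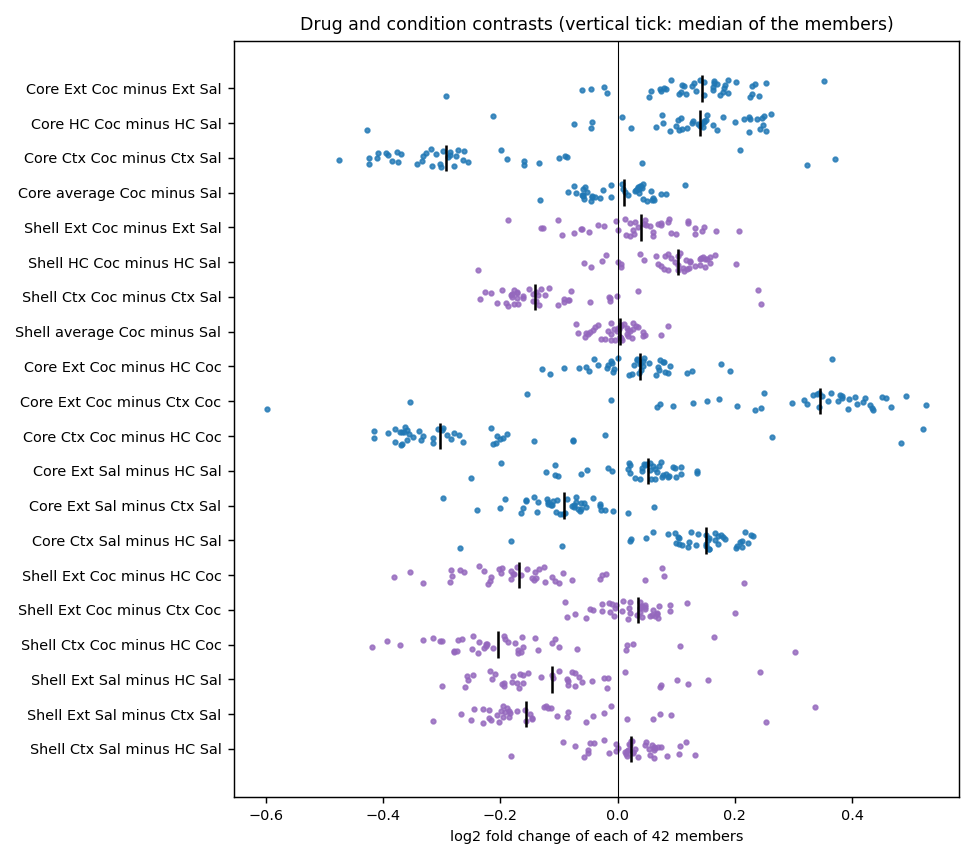
Log2 differences of the 42 members in the 8 drug and 12 condition comparisons, 1 point per member, blue for Core and purple for Shell, with a vertical tick at the median of the members. In most comparisons the members lie mostly on 1 side of 0, with medians from -0.30 (Core, Ctx_Coc minus HC_Coc) to 0.35 (Core, Ext_Coc minus Ctx_Coc). Without 17-F these medians were -0.15 and 0.20, in the order given. The drug averages split more evenly, with 23 members above 0 and 19 below in Core, and 24 and 18 in Shell. No point passed the test.

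Group medians of the receptor level differed in several of the comparisons in that plot. Core_Ctx_Coc, which had the highest median receptor level of the Core groups (1014 CPM, against 475 in Core_Ctx_Sal), had a median member difference of -0.29 from Ctx_Sal and of -0.30 from HC_Coc. Leaving out 17-F, a library of this group, gave -0.16 and -0.15. With the receptor level as a covariate and 17-F kept, the difference from Ctx_Sal was -0.05. In Shell, Ctx_Coc against HC_Coc went from -0.20 to -0.0077. In most comparisons of single groups the member median and the difference in receptor medians had opposite signs. In 2 comparisons the members differed although the receptor medians were close. Shell Ctx_Coc minus Ctx_Sal had -0.14 at receptor medians of 851 and 871 CPM, and Core HC_Coc minus HC_Sal had 0.14 at 815 and 817 CPM. Core Ext_Sal minus HC_Sal had 0.05 although its receptor median was the higher (950 against 817 CPM). With the receptor level of each library as a covariate these differences also moved, to -0.03, -0.05 and -0.09 in the order given. A median over members is a description here and carries no test.

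Other chromatin genes that are not members were counted as a list of 66 enzymes and cofactors. In Shell against Core 11 of them were lower and 0 higher (edgeR), where 8.77% of all genes were lower and 4.56% higher, with a median of -0.12 against 0.05 over all genes. Sirt2, a deacetylase abundant in oligodendrocytes, had the lowest p: 53.3 ± 11.9 CPM in Shell and 93.2 ± 42.3 CPM in Core (SD, n = 42 each), a difference of -0.78 ± 0.12 (SE, adjusted p = 1.20e-07). Rest, a repressor of neuronal genes (-0.25 ± 0.06), and Mbd4, a DNA glycosylase that binds methylated CG sites (-0.28 ± 0.07), followed. Under the receptor covariate 41 were higher and 3 lower (29.6% and 11.5% of all genes), with Sirt2 at -0.38 ± 0.05 and Rest at -0.12 ± 0.04. In the drug and condition comparisons and in the tests of the drug effect between subregions 0 of 66 passed.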

How the data were processed

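Total RNA libraries, made with a stranded low-input kit (SMARTer v3 Pico, per the labels' protocols) that keeps unspliced RNA, gave read counts per gene and FPKM, both deposited by the authors in 1 table of 84 libraries. Counting used featureCounts on mRatBN7.2, per the submitters' processing notes, and no source used here gives the aligner, annotation or strand setting. Counts were tested with edgeR 4.0.16 (R 4.3.3): TMM scaling, filterByExpr, the two-sided quasi-likelihood F test and Benjamini-Hochberg adjustment over all genes tested (32145 over both subregions, 31370 in Core, 30911 in Shell), at 0.05. Shell against Core used all 84 libraries with the F series as a covariate, and other comparisons the 42 libraries of a subregion with series as a covariate. In all 28 comparisons were made. The deposited FPKM served only to order genes. SE is that of the fitted log2 difference, and intervals are 95%. DESeq2 1.42.0, other scaling, filters, covariates and left-out libraries were alternatives. No 2 libraries held identical values. Named members were those past the threshold or, where none passed, the 3 of lowest p. The members and lists were chosen with earlier results of these data known. The test code was run on simulated counts that had the same spread for every gene and no series or receptor effects. That setting is simpler than these data, so it does not show how the tests handle such effects.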

Additional observations from a re-analysis of the deposited data

Results flagged for a closer look

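Single libraries far from the other 6 of their group were found in 8 of 96 checks of a group (chance gives about 1 in 20, or 4.8 of 96). Library 6-F of Shell_HC_Coc had Kat2b at 5.73 on the log2 CPM scale where the others lay between 5.26 and 5.44, Ezh1 at 5.72 where they lay between 5.08 and 5.2, and the receptor level at 6.36 where they lay between 9.17 and 10.0. Library 17-F of Core_Ctx_Coc had Hdac5 at 4.03 (others 5.99 to 7.29), and library 12-F of Shell_Ext_Sal had Hdac5 at 5.1 (others 6.13 to 6.55). Library 18-F of Shell_Ctx_Coc had Hdac9 at 7.88 (others 7.54 to 7.65). Library 24-F of Shell_Ctx_Sal had a receptor level of 7.62 (others 9.2 to 10.2). In library 3-2 of Shell_Ext_Coc the members took 0.257% of the counts (others 0.287% to 0.306%).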

How the results depend on the processing

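Of 789 values of 79 member differences under 11 alternatives chosen at the start and 3 added after seeing the data, 735 kept their direction and side of the threshold, 28 lost the call, 0 gained one and 26 turned. Of the 789, 711 belonged to 73 drug and condition differences, which had not passed and so had no call to lose. Among those 711, 22 turned. All 28 lost calls fell among the far fewer values of the 6 members called in Shell against Core. The counts of members called in the drug, condition, joint and interaction tests were 0 under every alternative run. In Shell against Core 1 member was higher and 5 lower (4.56% and 8.77% of all genes). The members higher numbered 0 with DESeq2 (4.34% of all genes), with DESeq2's size factors (3.83%) and without the F series (2.75%). In the F series alone they also numbered 0 (0.0506%, or 0.876% without 17-F). With the receptor level as a covariate they numbered 27 (29.6%), and 28 with that and without 17-F (28.6%). The members lower numbered 3 with no low-count filter (5.43% of all genes) and without the F series (7.08%). In the F series alone they numbered 0 (0.176%, or 1.22% without 17-F). They numbered 10 without 17-F (13.7%) and 8 without 17-F and 12-F (11.3%). With the receptor covariate they numbered 1 (11.5%), and 2 with that and without 17-F (15.2%). A block matched Core series 1 to Shell series 3 and Core series 2 to Shell series 4, by the number after the hyphen. With this block, which takes the numbered libraries only, 0 members were higher and 3 lower, at a background of 4.5% and 7.31% of genes. The 3 were Hdac7, Kat2b and Kdm4a, the members also called without the F series and without the block. No label states this matching or says that matched libraries share an animal. Their deviations correlated above 0.1 in 11 of 30 pairs, and 6 of 30 Core libraries correlated best with their own match. With the receptor level also removed these were 16 and 23 of 30, a hint of pairing from the data, not the design. The block could not be fitted within a subregion, where no number recurs, and the averages could not be had from the 2 groups alone. Members that differed between Core series numbered 2 with the receptor covariate (5.8% of all genes) and 1 with that and without 17-F (3.48%), in place of 40 (77.6%). Between Shell series they numbered 4 with DESeq2 (3.26% of all genes) and 1 with its size factors (0.718%), in place of 2 (0.734%). They numbered 0 with no filter (0.364%), without the F series (0%) and without 6-F (0.17%), and 13 without 12-F (12.3%).

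Shell minus Core turned positive with the receptor covariate for Tet3 (0.0353, and 0.0106 without 17-F) and Hdac5 (0.06 and 0.0191). None of the other values that turned had passed the test. Without the F series these were Ezh2 in Core Ext, Coc minus Sal (-0.0267), Kmt2c in Shell, Ext_Coc minus Ctx_Coc (-0.0253), and the Core drug averages of Ezh2 (-0.0218), Hdac4 (-0.0157), Sirt1 (-0.061) and Dnmt3a (-0.0321). Without 17-F the Core averages of Ehmt2 (0.00385) and Tet1 (0.0018) turned, with 12-F also left out or kept. Tet1 in Core had 0.00186 with DESeq2 and 0.000605 with its size factors. The Shell averages that turned with them were Hdac5 (0.00423 and 0.00418) and Dnmt3a (0.00303 with each). Sirt1 in Shell had -0.0281 with the receptor covariate (17-F in or out), -0.0157 without 17-F and 12-F, and -0.0394 without 6-F. Ehmt2 in Shell had -0.0231 without 17-F and 12-F and -0.0102 without 6-F. The cause was not tested.

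Depth limits Suv39h1 most, with 0 to 17 counts a library. DESeq2 moved the median over all genes by more than 0.1 in 3 Core comparisons: from 0.0273 to 0.146 in Ctx_Coc minus Ctx_Sal, from -0.179 to -0.296 in Ext_Coc minus Ctx_Coc, and from 0.114 to 0.218 in Ctx_Coc minus HC_Coc.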
